A study of Rattus norvegicus with 8 samples.

Results

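The outer medulla of the ethylene glycol stone model was set against the outer medulla of control kidneys, gene by gene, on 2 of the 8 arrays of the study. The members are the 13163 probe sets that reached the median signal of the table on at least 1 array, of 24834 listed, and 9315 of them carry a gene name. The study asked how phlorizin, which blocks the sodium-glucose cotransporters, bears on renal stones. All groups were male Sprague-Dawley rats, 10 weeks old per the labels, with free access to diet and water. The EG array holds outer medulla RNA after 2 weeks of ethylene glycol with alfacalcidol, a vitamin D analogue, and the control array holds outer medulla RNA of kidneys labelled control. Further arrays of the same zone, EG with phlorizin and phlorizin alone, and the EG and control arrays of the cortex are drawn on for comparison. Each group has 1 array, so a difference between the EG array and the control array has no replicate check, no error and no p-value. The sources used here do not give the number of animals behind an array. Kidneys were divided into their zones, so an outer medulla array and the cortex array of its treatment can stem from the same animals.

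Ethylene glycol is turned into oxalate, mainly in the liver, and oxalate that reaches the urine can precipitate with calcium. Alfacalcidol raises the calcium load, and the pair is a common way to make calcium oxalate crystals in rat kidneys. The outer medulla holds the thick ascending limb, the straight end of the proximal tubule, collecting ducts with principal and intercalated cells, and bundles of vasa recta. Its thick ascending limb pumps salt with a high use of oxygen and dilutes the urine, and it also reabsorbs calcium and magnesium between cells.

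Values are deposited log2 expression values, and a difference is the EG array minus the control array on that scale, so a difference of 1 is a 2-fold change in signal. The 23 background probe sets averaged 5.59 on the EG array and 5.60 on the control array. Where a value lay below that mean, the difference from the mean is given as "at least". Array medians over transcripts were 7.58 with EG and 7.51 in the control, and hybridisation spike-ins averaged 10.6 with EG and 10.8 in the control. The zone was recognisable on both arrays: Umod, the uromodulin gene of the thick ascending limb, stood at 17.46 with EG and 18.85 in the control, Slc12a1, its furosemide-sensitive cotransporter, at 16.89 and 17.97 in the same order, and Aqp2, the water channel of principal cells, at 17.26 and 17.76. Slc5a2, which encodes SGLT2 of the cortical proximal tubule, lay at background with 5.45 under EG and 6.02 in the control.

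In the EG outer medulla 1130 probe sets (8.58%) were at least 1 higher than in the control and 1275 (9.69%) at least 1 lower. Each count for a gene list below is to be read beside these shares. Counts at larger sizes leaned to the higher side: 339 higher and 242 lower by at least 2, 116 and 58 by at least 3, and 49 and 10 by at least 4. The median difference of all tested probe sets was -0.05, and it was -0.11 after each array was centred on its median. For scale, the phlorizin array differed from the control array, both without EG, by at least 1 at 76 probe sets higher (0.577%) and 27 lower (0.205%). EG with phlorizin minus phlorizin, a second pair of outer medulla arrays that shares no array with the first, had 481 probe sets at least 1 higher (3.65%) and 396 lower (3.01%).

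The 4 outer medulla arrays were also fitted together in limma, with EG and phlorizin as terms. That fit uses the values as deposited, with no floor at background, and called 237 probe sets that rose with EG (1.8%) and 118 that fell (0.896%) at an adjusted p under 0.05. Its residual is the change of the EG difference between the pair without and the pair with phlorizin, so it sets the EG effect against that change and technical spread. It does not measure the spread between animals, and genes whose difference was much smaller with phlorizin can hardly pass. The calls also rest on the scale of the arrays: after quantile normalization of the 4 arrays 0 probe sets passed, with 1487 higher and 1564 lower at an unadjusted limma p under 0.05 and a lowest adjusted p of 0.0588. "Rose" and "fell" are kept here for genes called by this fit, and "higher" and "lower" for the difference between the EG array and the control array. All 237 and all 118 were at least 1 apart between those arrays, which enter the fit, so this overlap is not independent of it.

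Among the named genes with the highest differences, A2m, encoding the protease inhibitor alpha-2-macroglobulin, stood at 14.22 with EG and at 5.91, near background, in the control. Mfap4, a microfibril-associated protein, had 12.31 with EG and 3.81 in the control, at least 6.72 higher. Gabrp, the pi subunit of the GABA-A receptor, stood at 13.66 with EG and at 5.86, near background, in the control, and in the joint fit it had the lowest p of all probe sets (rose by 7.31, SE 0.30, limma adjusted p = 0.0062). Havcr1, encoding the injury marker KIM-1, had 14.26 with EG and 6.56 in the control. Olr1, an oxidised lipoprotein receptor of macrophages and endothelium, had 10.95 with EG and 4.52 in the control, at least 5.36 higher. Inhba, which encodes the activin A subunit, had 12.00 with EG and 6.32 in the control, and Cthrc1, a secreted protein of collagen-making cells, had 11.49 with EG and 6.87 in the control.

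At the other end, Dnase1, a nuclease secreted by the tubule, stood at 9.97 with EG and 16.28 in the control, a difference of -6.31 and the lowest of all named genes. Kcnj10, a basolateral potassium channel of the distal nephron, was close to background with EG at 5.76, against 10.96 in the control. Adhfe1, a mitochondrial alcohol dehydrogenase, had 9.52 with EG and 14.04 in the control. Slc2a4, encoding the insulin-responsive glucose transporter GLUT4, had 6.36 with EG and 10.49 in the control. Kl, which encodes klotho, the coreceptor of the phosphate hormone FGF23, had 10.92 with EG and 14.51 in the control, and Slc9a3, the apical sodium-proton exchanger NHE3, had 12.52 with EG and 16.07 in the control. Both of these sat far above background on both arrays, so their differences of -3.60 and -3.54 are not limited by it. Zbtb16 and Fkbp5, genes known to respond to glucocorticoid, had 7.56 and 9.78 with EG and 11.15 and 12.22 in the control, and both fell in the joint fit (limma adjusted p = 0.032 and 0.031). Fkbp5 was set beside Zbtb16 with its values seen. Zbtb16 had 6.54 under EG with phlorizin and 8.82 with phlorizin alone, so it was below the control on the phlorizin array too, without EG.

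Among the 25 named genes with the highest differences, which spanned 4.48 to 8.50 without a floor at background, all 25 were at least 1 higher with EG in the phlorizin pair too, and 19 rose in the joint fit. Of the 25 lowest, 21 were at least 1 lower in the phlorizin pair and 11 fell in the joint fit. The EG and control arrays that picked these genes also enter that fit, so its calls are not independent of the choice. The control value lay below the background mean for 7 of the 25 highest, and no EG value did so for the 25 lowest. The plot of these 50 genes shows control values of 3.81 to 11.51 for the highest and of 10.19 to 16.28 for the lowest.

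**Figure D1:**
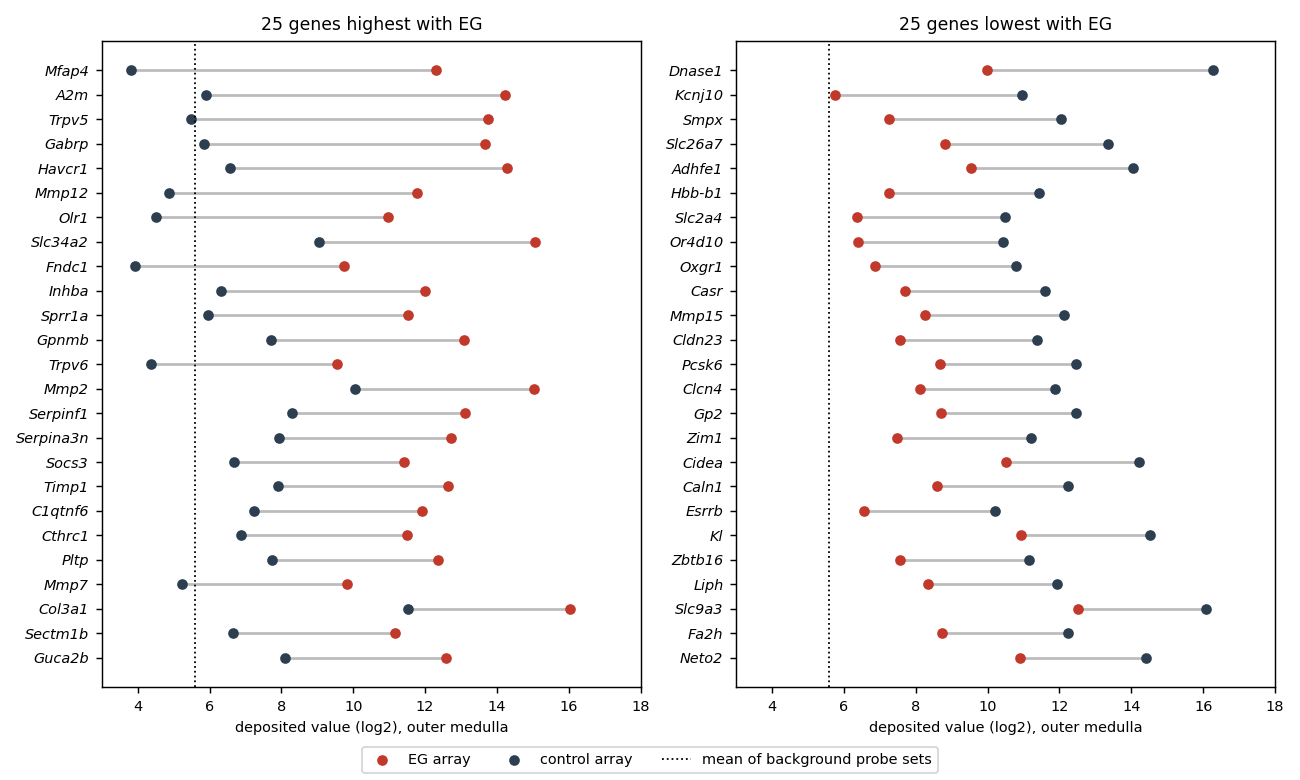
Deposited log2 values in the outer medulla of the 25 named genes with the highest (left) and the 25 with the lowest (right) difference, with the EG array in red and the control array in dark blue, 1 array each, and the mean of the background probe sets as a dotted line. Dnase1 spans 9.97 with EG and 16.28 in the control, and 7 control values of the left panel lie below the dotted line.

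Some genes of distal calcium transport were higher with EG, and of these Trpv5, Trpv6 and Calb1 lay below the background mean in the control outer medulla. Trpv5, which encodes the entry channel for calcium in the distal convoluted and connecting tubule, had 13.76 with EG and 5.48 in the control, at least 8.16 higher. It had 10.99 under EG with phlorizin and 4.49 with phlorizin alone, and it rose by 7.39 in the joint fit (SE 0.43, limma adjusted p = 0.012). The EG value in the outer medulla matched the 13.76 of the EG cortex, where the control already stood at 11.35. Trpv6, its close relative, had 9.53 with EG and 4.38 in the control, at least 3.94 higher, and rose too (limma adjusted p = 0.031). Calb1, the calcium-binding protein calbindin-D28k, had 8.21 with EG and 5.45 in the control, at least 2.61 higher, with 7.56 under EG with phlorizin and 5.69 with phlorizin alone. Slc8a1, the sodium-calcium exchanger NCX1 that moves calcium out across the basolateral membrane, had 10.87 with EG and 9.23 in the control. Calb1 and Slc8a1 rose in the joint fit (limma adjusted p = 0.0326 and 0.048), whereas in the cortex both were lower with EG, by differences of -1.85 and -1.15. Atp2b4, a plasma membrane calcium pump, was 1.86 higher with EG, at 10.14 against 8.29 in the control, and did not pass the joint fit (limma adjusted p = 0.135). Atp2b1, another pump of that family, had 13.13 with EG and 12.89 in the control.

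Other markers of the same segments did not all follow. Slc12a3, the thiazide-sensitive cotransporter that defines the distal convoluted tubule, stayed below background, at 4.53 with EG and 4.65 in the control, and at 15.45 with EG and 16.07 in the control in the cortex. S100g, encoding calbindin-D9k, had 6.84 with EG and 7.13 in the control. Tmem52b, a gene with high cortical levels here, had 8.95 with EG and 6.05 in the control, but 6.90 and 6.39 in the phlorizin pair in the same order. Kl, also typical of the distal convoluted tubule, was lower. Of the 10 tested markers of the distal convoluted and connecting tubule, 5 were higher and 1 lower by at least 1, with a median difference of 0.90, against -0.05 for all tested probe sets. That median was 0.41 without the filter on low signal and 0.17 with the filter on the mean of the EG and control arrays. Of these 10, 4 rose and 0 fell in the joint fit (limma; adjusted p = 0.0825 for Kl), namely Trpv5, Trpv6, Calb1 and Slc8a1. The mean level of the list was 9.85 with EG and 8.21 in the control.

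Phosphate and vitamin D genes gave a mixed picture. Slc34a2, a sodium-phosphate cotransporter best known from lung and gut, had 15.05 with EG and 9.04 in the control and rose in the joint fit by 5.17 (SE 0.41, limma adjusted p = 0.0246). The main renal phosphate transporter, Slc34a1, stood at 8.74 with EG and 8.33 in the control. Fgfr3, a fibroblast growth factor receptor, had 11.01 with EG and 7.89 in the control and rose (limma adjusted p = 0.0478). Casr, the calcium-sensing receptor of the thick ascending limb, had 7.71 with EG and 11.59 in the control, with 9.29 under EG with phlorizin and 11.30 with phlorizin alone, and it fell in the joint fit (limma adjusted p = 0.0411). Vdr, the vitamin D receptor, had 8.54 with EG and 9.08 in the control. Cyp24a1, the vitamin D degrading enzyme, stayed below background at 4.44 with EG and 4.91 in the control, while the EG cortex had 15.64 and the control cortex 12.05. Of the 24 tested genes of vitamin D, calcium and phosphate, 8 were higher and 3 lower by at least 1, with a median of 0.25, and 6 rose and 1 fell in the joint fit. The plot by array shows Trpv5, Trpv6 and Gabrp separating both EG arrays from both arrays without EG in the outer medulla.

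**Figure D2:**
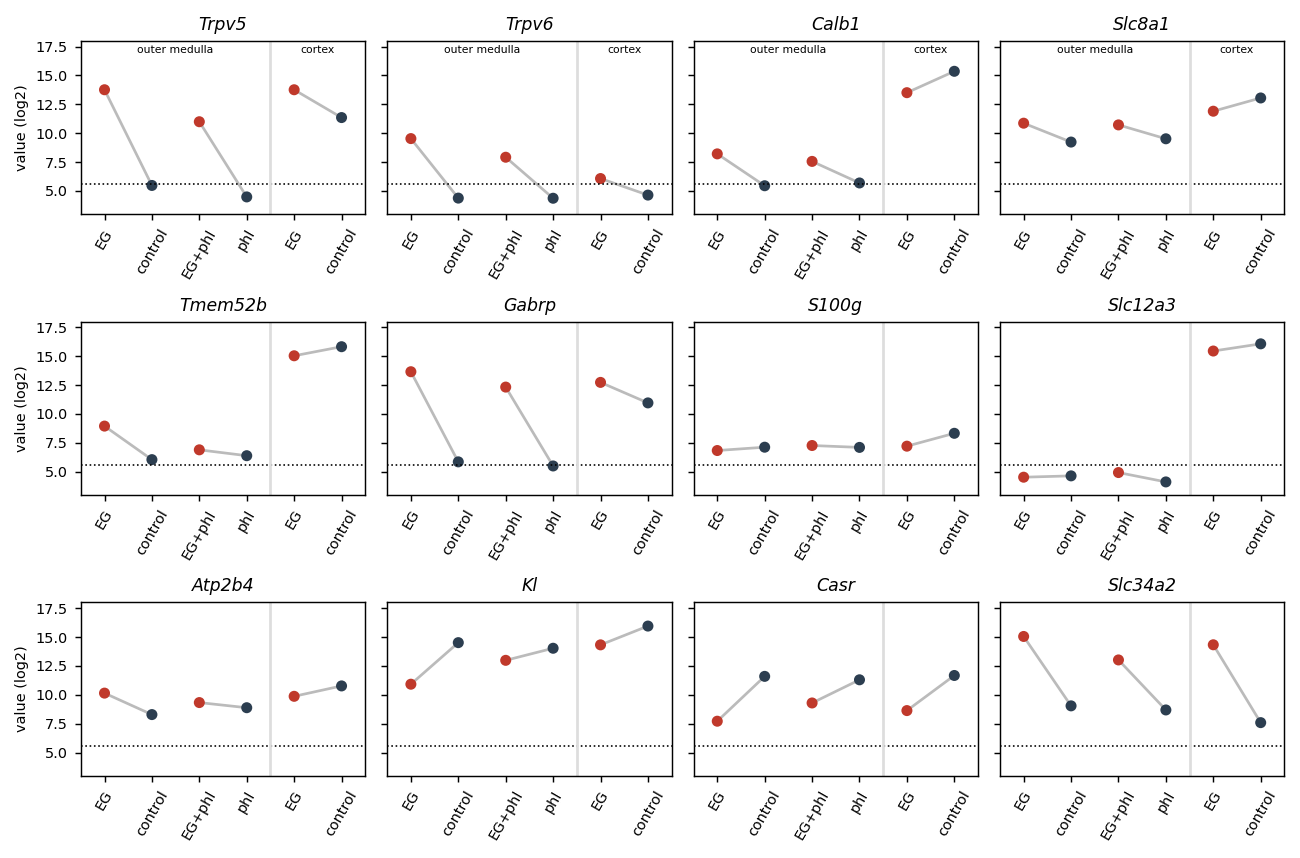
Deposited log2 values of 12 genes, most of calcium and phosphate handling, on the 4 outer medulla arrays and the EG and control arrays of the cortex, with EG arrays in red and arrays without EG in dark blue, 1 array per point, and the mean of the background probe sets as a dotted line. Trpv5 reaches 13.76 with EG in both zones, against 5.48 in the control outer medulla and 11.35 in the control cortex, and Slc12a3 stays below the dotted line on the 4 outer medulla arrays.

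Tubule injury genes were higher with EG, with 15 of 24 tested at least 1 higher, 1 at least 1 lower and a median of 1.72. Clu, encoding clusterin, a chaperone released by injured tubules, reached 19.12 with EG, close to the top of the scale, against 14.65 in the control, and had 18.64 under EG with phlorizin and 14.47 with phlorizin alone. It rose by 4.32 in the joint fit (SE 0.23, limma adjusted p = 0.012). Sprr1a, a small proline-rich protein of stressed epithelium and nerve, had 11.51 with EG and 5.95 in the control, but differed by 1.23 in the phlorizin pair, and the cortex had 5.27 with EG and 5.03 in the control. High values of Sprr1a were thus seen on the EG outer medulla array alone among the arrays set side by side here. The same array stood apart for Krt15, a basal keratin, at 10.38 against 6.38 in the control, with 6.09 under EG with phlorizin and 6.23 with phlorizin alone. Lcn2, encoding NGAL, had 13.42 with EG and 9.05 in the control, and 8.79 and 8.14 in the phlorizin pair in the same order, so the EG array without phlorizin was far above the other 3. Epithelial keratins were higher as well, with Krt19 at 10.42 with EG and 7.41 in the control, Krt18 at 10.98 and 8.29, and Krt8 at 11.66 and 9.62, EG first in each. The fibrinogen chain genes Fga, Fgb and Fgg had 10.06, 8.43 and 7.07 with EG, against 6.19, 5.35 and 5.13 in the control. The exception was Tff3, a trefoil peptide of the epithelial surface, at 9.36 with EG and 10.65 in the control. In the joint fit Havcr1, Timp1 and Clu rose and no member of the list fell.

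Genes whose proteins are found in stones or bind crystals had a median of 1.91 over 15 tested, with 9 at least 1 higher and 1 lower. Gpnmb, a glycoprotein of macrophages and osteoclasts, had 13.08 with EG and 7.71 in the control. Mgp, the matrix Gla protein that inhibits calcification, had 17.17 with EG and 13.76 in the control. Has2, a hyaluronan synthase, had 9.72 with EG and 6.93 in the control, and the hyaluronan receptor gene Cd44 had 12.35 and 10.19 in that order. Spp1, encoding osteopontin, was already high in the control at 16.58 and stood at 18.49 with EG, a difference of 1.91, against 8.42 in the cortex. Umod, whose protein uromodulin is held to inhibit crystal aggregation, was lower at -1.39. Gpnmb, Mgp, Cd44 and Spp1 rose in the joint fit. Without the filter on low signal the list's median was 0.41.

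The matrix and fibrosis list had 25 of 32 tested genes at least 1 higher with EG and 0 at least 1 lower, with a median of 2.13, and 11 rose in the joint fit. The fibrillar collagen genes Col3a1 and Col1a1 had 16.03 and 15.13 with EG, against 11.51 and 10.89 in the control. Of the matrix metalloproteinases, Mmp12, the macrophage elastase, had 11.78 with EG and 4.87 in the control, at least 6.19 higher. Mmp2, a gelatinase, had 15.04 with EG and 10.05 in the control, and Mmp7, matrilysin, had 9.81 with EG and 5.24 in the control, at least 4.22 higher. Timp1, an inhibitor of these enzymes, had 12.64 with EG and 7.91 in the control. The contractile genes Acta2 and Tagln, marks of myofibroblasts and smooth muscle, had 14.44 and 15.74 with EG, against 11.18 and 11.85 in the control, and both rose (limma adjusted p = 0.0406 and 0.0322). Eln, encoding elastin, had 12.86 with EG and 9.22 in the control, but differed by -0.26 in the cortex and by 0.50 in the phlorizin pair. Genes of the list that were less than 1 apart included Tgfb1 at 11.62 with EG and 10.65 in the control, and Plau, encoding urokinase, at 17.13 and 16.79 in that order.

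Macrophage markers were at least 1 higher for 17 of 20 tested genes and lower for 0, and had a median of 2.37. The mean level of the list was 12.02 with EG and 9.34 in the control, and 10.83 under EG with phlorizin against 9.38 with phlorizin alone. In bulk tissue more cells of a type and more RNA per cell cannot be told apart, and the same holds for fewer cells and less RNA. The scavenger receptor genes Cd163, Msr1 and Mrc1 had 9.44, 9.91 and 13.35 with EG, against 5.38, 7.64 and 9.98 in the control. Ccr2, the receptor of monocytes for the chemokine CCL2, had 11.46 with EG and 7.91 in the control. Other markers of the list differed less: Adgre1, a surface receptor of macrophages, had 9.04 with EG and 8.28 in the control, and Aif1 had 10.23 and 9.06 in that order. Of the 20, 7 rose in the joint fit, namely Mmp12, Gpnmb, Mrc1, Cd68, Cd14, Clec7a and Cybb. Siglec1, a sialic acid receptor of tissue macrophages outside the list, was picked with its values seen. It had 8.79 with EG and 5.85 in the control and rose in the joint fit (limma adjusted p = 0.031). No listed neutrophil marker reached the filter on any array. Of 4 tested lymphocyte markers, Cd4, which rat macrophages also carry, was 2.01 and the pan-leukocyte gene Ptprc 1.20 higher, while Cd8b (-0.64) and Cd2 (-0.23) of T cells were not.

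Among chemokines and cytokines 11 of 17 tested were at least 1 higher, with a median of 1.28. The interleukin-1 receptor antagonist gene Il1rn had 10.14 with EG and 6.89 in the control, and the alarmin gene Il33 had 10.65 with EG and 8.62 in the control. Both rose in the joint fit (limma adjusted p = 0.0388 and 0.046). Ccl2, the monocyte chemokine, had 12.31 with EG and 10.85 in the control, and Cxcl10, an interferon-induced chemokine, had 11.25 and 11.45 in that order. Complement genes were at least 1 higher for 8 of 14 tested and lower for 1, with a median of 1.37. Cfi, encoding complement factor I, had 10.12 with EG and 6.02 in the control, and its difference in the phlorizin pair was 3.67 (rose by 3.89, SE 0.24, limma adjusted p = 0.0124). Cd55, a brake on complement at the cell surface, was 1.88 higher in the outer medulla, 2.02 higher in the phlorizin pair and lower in the cortex at -1.39.

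Acute phase genes and genes of interleukin-6 family signalling were at least 1 higher for 9 of 15 tested, with a median of 1.94. Serpina3n, a serine protease inhibitor, had 12.72 with EG and 7.92 in the control. Socs3, the feedback inhibitor of these cytokines, had 11.42 with EG and 6.67 in the control. Osmr, the oncostatin M receptor, had 14.63 with EG and 12.25 in the control, and Cp, encoding ceruloplasmin, 16.74 and 14.41 in that order. These 4 and A2m rose in the joint fit. The shared receptor chain gene Il6st and the transcription factor gene Stat3 stood at 14.36 and 14.45 with EG, against 13.44 and 14.46 in the control. Some interferon-induced genes went the other way or stayed within 1: Rsad2 (viperin) had 7.47 with EG and 9.35 in the control, and Irf7, Mx2 and Oas1a differed by -0.82, -0.70 and -0.72. The list of 17 had 6 higher, 1 lower and a median of 0.53. The 6 were the class II genes RT1-Da, at 14.22 with EG and 12.48 in the control, RT1-Ba and RT1-Bb, their invariant chain gene Cd74, and the immunoproteasome genes Psmb8 and Psmb9. B2m and Tap1, of class I presentation, differed by 0.53 and 0.57.

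Cell cycle genes were at least 1 higher for 19 of 24 tested and lower for 0, with a median of 1.82. Bub1 and Cdk1 reached the filter on the EG outer medulla array alone, and Cenpf, Aurkb, Ccnb1, Plk1 and Birc5, among others, on EG arrays alone. Such members enter the count because they were high with EG. The median was 1.71 without the filter on low signal and 1.68 with the filter on the mean of the EG and control arrays. Mki67, the proliferation marker, had 11.83 with EG and 7.62 in the control, with 10.37 under EG with phlorizin and 7.60 with phlorizin alone. Cenpf, a kinetochore protein, had 8.24 with EG and 5.83 in the control. Ccnb2, a mitotic cyclin, had 8.98 with EG and 7.12 in the control, with a difference of 2.19 in the phlorizin pair. The kinase genes Plk1, Aurkb and Bub1 had 8.91, 8.10 and 7.85 with EG, against 6.93, 5.88 and 5.21 in the control. In the joint fit 8 of the 24 rose, namely Mki67, Ccna2, Bub1, Cenpf, Plk1, Ccnb2, Birc5 and Cdkn3. Other members differed less, with Pcna at 12.51 with EG and 12.19 in the control and Ccnd1 at 12.75 and 13.33 in that order. Of 10 tested growth arrest genes 0 were at least 1 higher and 1 was at least 1 lower. That is near the 8.58% higher and 9.69% lower over all tested probe sets. Cdkn1a, the p21 gene, had 7.23 with EG and 7.63 in the control.

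Because the mitotic genes were higher together, the 250 bases before their RefSeq starts (build GRCr8, 1 window a gene) are shown for 3 of them, picked with their values known. Capitals mark CCAAT, the box bound by NF-Y, and TTTGAA, a cell cycle homology element, on either strand.
Mki67, chr1:199952594-199952843, minus strand: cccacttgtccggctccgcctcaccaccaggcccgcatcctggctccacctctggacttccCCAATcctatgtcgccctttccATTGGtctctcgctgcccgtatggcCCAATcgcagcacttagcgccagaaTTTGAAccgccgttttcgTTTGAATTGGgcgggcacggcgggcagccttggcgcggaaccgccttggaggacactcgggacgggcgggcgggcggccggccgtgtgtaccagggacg
Ccnb2, chr8:79981659-79981908, minus strand: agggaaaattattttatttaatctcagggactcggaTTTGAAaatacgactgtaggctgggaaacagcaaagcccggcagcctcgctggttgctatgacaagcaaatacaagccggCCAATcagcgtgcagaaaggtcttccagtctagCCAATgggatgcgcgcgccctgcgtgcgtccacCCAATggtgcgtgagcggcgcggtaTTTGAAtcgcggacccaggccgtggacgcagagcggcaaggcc
Cenpf, chr13:103760887-103761136, minus strand: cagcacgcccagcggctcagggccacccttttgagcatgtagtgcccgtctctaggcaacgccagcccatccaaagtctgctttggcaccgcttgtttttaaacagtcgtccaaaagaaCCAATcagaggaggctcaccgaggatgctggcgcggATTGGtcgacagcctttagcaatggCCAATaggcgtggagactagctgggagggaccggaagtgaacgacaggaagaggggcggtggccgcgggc
Of the 24 cell cycle genes 19 had a window, and CCAAT or its complement was present in 14 of them (73.7%), against 34.3% of the 27457 genes with a window. TTTGAA was present in 7 of the 19 (36.8%), against 16% of all. Mki67 holds 4 CCAAT and 2 TTTGAA matches, of which a pair overlaps by a base, Ccnb2 3 and 2, and Cenpf 3 and 0. A match describes the letters of a window and not a site of binding.

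Mmp12 and Sprr1a, from the 25 highest genes, are shown for another motif, TGANTCA, to which AP-1 factors bind, with TATAAA, the TATA box, also in capitals.
Mmp12, chr8:12866402-12866651, plus strand: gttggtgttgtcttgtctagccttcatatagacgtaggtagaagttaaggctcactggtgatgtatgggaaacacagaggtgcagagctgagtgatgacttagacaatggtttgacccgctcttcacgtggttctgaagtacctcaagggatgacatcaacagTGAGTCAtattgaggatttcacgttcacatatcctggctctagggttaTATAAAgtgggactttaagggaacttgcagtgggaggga
Sprr1a, chr2:180752626-180752875, minus strand: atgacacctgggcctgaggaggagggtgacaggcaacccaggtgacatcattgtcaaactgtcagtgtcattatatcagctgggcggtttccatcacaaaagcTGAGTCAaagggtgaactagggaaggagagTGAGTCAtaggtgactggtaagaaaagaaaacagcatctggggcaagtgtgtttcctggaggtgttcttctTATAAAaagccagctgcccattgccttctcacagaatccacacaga
Mmp12 holds TGANTCA 87 bases before its start, and Sprr1a holds it 147 and 117 bases before. The motif is present in 6.36% and TATAAA in 13.1% of all windows. Over the matrix and fibrosis list TGANTCA was present in 3 of 20 windows and over the tubule injury list in 3 of 21, and TATAAA was present in 7 of each. The AP-1 subunit genes Fos, Jun and Junb were not higher with EG, at 12.24, 13.05 and 10.35 against 12.78, 13.43 and 10.54 in the control. Of 16 immediate early genes 3 were at least 1 higher and 0 lower. Atf3, a factor of the related ATF family, had 12.06 with EG and 10.28 in the control. In the phlorizin pair it went the other way, with 11.27 under EG with phlorizin and 11.88 with phlorizin alone. Myc had 11.02 with EG and 8.01 in the control and Egr2 9.37 and 7.10 in that order, and these 2 rose in the joint fit (limma adjusted p = 0.031 for each).

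Thick ascending limb genes were lower with EG, with 12 of 16 tested at least 1 lower, 0 at least 1 higher and a median of -1.46. Bsnd, encoding barttin, the partner of the basolateral chloride channels, had 9.96 with EG and 13.04 in the control. Egf, the growth factor made in this segment and the distal convoluted tubule, had 13.71 with EG and 16.96 in the control. Stk39, the kinase SPAK that acts on the cation cotransporters, had 14.25 with EG and 16.10 in the control. The core transport genes Kcnj1, encoding ROMK, and Slc12a1 stayed above 16 on both arrays and differed by -1.31 and -1.08. Claudins of the paracellular route diverged: Cldn10, of the sodium pore, had 15.72 with EG and 17.12 in the control, Cldn16 14.36 and 14.42, and Cldn19 15.24 and 14.37, EG first in each. Only Kcnj10, Casr and Bsnd fell in the joint fit, and the list's median in the phlorizin pair was -0.34. Fxyd2, the gamma subunit of the sodium pump, had 17.16 with EG and 18.83 in the control, and Atp1b1, its beta subunit, 16.35 and 17.04 in that order.

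Transcription factors of the tubule were lower for 7 of 17 tested and higher for 0, with a median of -0.65. Esrrb and Esrrg, orphan receptors of the oestrogen-related family that drive mitochondrial and transport genes, had 6.57 and 12.29 with EG, against 10.19 and 14.18 in the control. Ppargc1a, their coactivator PGC-1alpha, had 14.55 with EG and 16.24 in the control, whereas Esrra, the third receptor of that family, had 8.48 and 8.99 in that order. Ppara, the regulator of fatty acid oxidation, had 7.56 with EG and 10.30 in the control. Esrrb and Ppara fell in the joint fit (limma adjusted p = 0.0478 and 0.0362). Pax8 and Grhl2, epithelial factors, stayed within 1, at 15.46 and 11.19 with EG against 15.87 and 11.40 in the control.

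Intercalated cell genes were lower for 12 of 17 tested and higher for 0, with a median of -1.89, against -0.82 in the phlorizin pair. Slc26a7, an anion exchanger of the outer medullary duct, had 8.82 with EG and 13.35 in the control, but 12.04 under EG with phlorizin and 12.87 with phlorizin alone. Oxgr1, the receptor for oxoglutarate, had 6.86 with EG and 10.78 in the control and fell in the joint fit (limma adjusted p = 0.0399). Slc4a1, the bicarbonate exchanger AE1, had 12.97 with EG and 15.96 in the control, and is carried by red cells too. Ammonia channel genes Rhbg and Rhcg had 10.61 and 13.15 with EG, against 13.26 and 15.56 in the control, and the proton pump subunit genes Atp6v1b1 and Atp6v1g3 had 10.42 and 9.65 with EG, against 12.76 and 11.54 in the control. The transcription factor gene Foxi1, which sets up these cells, had 11.85 with EG and 12.72 in the control, and Kit had 9.77 and 9.67 in that order. The mean level of the list was 9.88 with EG and 11.62 in the control. Oxgr1, Atp6v1g3 and Slc4a9 fell in the joint fit.

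Principal cell genes were lower for 4 of 12 tested, with a median of -0.32. Scnn1a, the alpha subunit of the epithelial sodium channel, had 9.50 with EG and 11.62 in the control, while the beta and gamma subunit genes Scnn1b and Scnn1g had 11.79 and 10.55 with EG, against 11.55 and 10.70 in the control. Of the basolateral water channels Aqp3 had 13.95 with EG and 15.47 in the control and Aqp4 had 12.85 and 14.77 in that order, and apical Aqp2 differed by -0.51. In the joint fit 0 of the 12 passed (limma; lowest adjusted p = 0.058, for Scnn1a), while 5 were lower at an unadjusted p under 0.05.

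Genes of the respiratory chain were lower almost throughout, with 25 of 28 tested at least 1 lower and 0 higher, in a narrow range of -1.83 to -0.82 and a median of -1.38. Ndufs8 of complex I had 11.86 with EG and 13.68 in the control, Sdhb of complex II 13.60 and 15.06, Cyc1 of complex III 11.68 and 13.45, Cox5b of complex IV 13.98 and 15.45, and Atp5f1b of the ATP synthase 16.44 and 17.68, EG first in each. All 28 were lower in the phlorizin pair too, with a median of -0.68, and 0 of 28 fell in the joint fit (limma; lowest adjusted p = 0.0587, for Ndufv1), while 27 of them had an unadjusted p under 0.05. Of 25 genes of fatty acid and ketone use 12 were at least 1 lower and 0 higher, with a median of -0.96. Echs1 and Ehhadh, hydratases of beta-oxidation, had 11.39 and 8.80 with EG, against 13.99 and 11.24 in the control. The ketone body enzyme genes Bdh1 and Oxct1 had 11.63 and 14.27 with EG, against 14.22 and 16.34 in the control. Lpl, lipoprotein lipase, had 12.70 with EG and 15.82 in the control, and Cidea, a lipid droplet protein, had 10.50 with EG and 14.21 in the control.

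Genes of glucose use showed no common direction. Of 26 tested genes of glycolysis and the hypoxia response 2 were higher and 6 lower, with a median of -0.41. Hk2, a hexokinase, had 9.75 with EG and 8.42 in the control, and Pfkp, a phosphofructokinase, had 12.43 with EG and 14.23 in the control. G6pc1, the glucose-6-phosphatase of glucose release, had 6.95 with EG and 10.42 in the control and fell in the joint fit (limma adjusted p = 0.0484), as did the glutamine transporter gene Slc38a3. The glucose transporter list had 5 of 13 higher and 2 lower. Slc2a2, encoding GLUT2, had 7.24 with EG and 4.83 in the control, at least 1.65 higher, but -0.16 in the phlorizin pair. Slc5a10, a mannose and fructose cotransporter of the straight proximal tubule, had 8.50 with EG and 6.38 in the control and rose (limma adjusted p = 0.0375), while it was lower in the cortex at -1.84. Slc5a1, encoding SGLT1, lay near background at 5.84 with EG and 4.58 in the control.

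Straight proximal tubule genes split, with 3 of 14 tested higher and 2 lower. Slc7a12, an amino acid transporter, had 7.53 with EG and 10.84 in the control, with 8.21 under EG with phlorizin and 11.64 with phlorizin alone, and fell by 3.37 in the joint fit (SE 0.22, limma adjusted p = 0.0133). Slc22a2, the organic cation transporter OCT2 of this segment, had 9.07 with EG and 10.95 in the control and fell too (limma adjusted p = 0.0312). Slc7a13, the cystine transporter of the last proximal segment, had 12.51 with EG and 13.48 in the control, against 8.46 with EG and 15.40 in the control in the cortex. Markers of the convoluted proximal tubule, a cortical segment, averaged far below their cortical level on both arrays. Of 15 tested, 3 were higher and 3 lower, the median was 0.41 (0.13 with values held at the background mean and 0.93 with the filter on the mean of the EG and control arrays), and the mean level of the list was 7.73 with EG and 7.47 in the control, against 15.10 and 16.21 in the cortex. Values lay below the background mean for 5 of the 15 with EG and for 2 in the control. Slc5a2, Slc5a12, Slc22a6 and Slc22a8, the members with the lowest differences, had 5.45, 5.22, 5.93 and 4.82 with EG, against 6.02, 6.71, 7.61 and 6.22 in the control. Lrp2, Cubn, Slc4a4 and Slc7a8, above background on both arrays, were higher by 0.96, 1.02, 0.93 and 0.85. Of the 15, 9 lay above 0 and 6 below. Slc7a7, a basolateral amino acid transporter subunit, had 11.77 with EG and 9.40 in the control, and Slc13a1, a sulphate cotransporter, had 10.14 with EG and 6.22 in the control. Both rose in the joint fit (limma adjusted p = 0.0469 and 0.0484). The podocyte genes Podxl and Wt1 stood at 12.66 and 7.04 with EG, against 13.91 and 6.83 in the control, and Podxl is carried by endothelium too.

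Endothelial genes were lower for 6 of 15 tested and higher for 1, with a median of -0.76. Kdr, the main receptor for VEGF, had 10.36 with EG and 12.49 in the control, and Ehd3, a trafficking protein of renal endothelium, had 12.66 and 14.76 in that order and fell in the joint fit (limma adjusted p = 0.0478). Plvap, of fenestrated vessels, had 14.06 with EG and 15.29 in the control. The pan-endothelial genes were split: Cdh5 and Eng had 12.99 and 15.26 with EG, against 12.66 and 15.23 in the control, but Emcn, Esam and Pecam1 differed by -1.05, -1.04 and -0.76. Of the 15, 11 lay below 0 and 4 above. The urea transporter gene Slc14a1 of the descending vasa recta had 11.82 with EG and 10.44 in the control. Red cell transcripts were lower for 4 of 4 tested, with a mean level of 11.31 with EG and 13.74 in the control. Hbb and Hba-a1, the haemoglobin chains, had 11.72 and 14.67 with EG, against 14.69 and 17.10 in the control. In the phlorizin pair they did not differ that way, with Hbb at 15.61 under EG with phlorizin and 15.18 with phlorizin alone, and 0 of the 4 passed the joint fit (limma; lowest adjusted p = 0.0743, for Slc4a1, the 1 member with an unadjusted p under 0.05). Red cell transcripts were lower on the EG array, as were many endothelial, thick ascending limb and intercalated cell genes. In the phlorizin pair the red cell median was 0.275, against -0.236, -0.335 and -0.823 for those lists in that order. The part of red cell transcripts in those differences was not tested.

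Most antioxidant genes were less than 1 apart. Of 23 tested, 4 were at least 1 higher and 0 lower, with a median of 0.18, against 8.58% higher and 9.69% lower over all tested probe sets. Hmox1, haem oxygenase-1, had 8.47 with EG and 6.35 in the control and rose in the joint fit (limma adjusted p = 0.0373). Gpx2 and Gpx3, glutathione peroxidases, had 8.95 and 14.15 with EG, against 6.84 and 12.12 in the control, but Gpx3 differed by -0.21 in the phlorizin pair. The NRF2 target genes Nqo1 and Srxn1 had 8.13 and 8.72 with EG, against 9.11 and 8.34 in the control. Among 5 NADPH oxidase genes 3 were at least 1 higher. Nox4, the renal catalytic subunit, had 9.19 with EG and 6.42 in the control and rose (limma adjusted p = 0.0323), whereas the EG cortex had 13.67 and the control cortex 15.58. ER stress genes had 1 of 15 higher and 2 lower, and Ddit3, encoding CHOP, had 9.07 with EG and 10.57 in the control and fell (limma adjusted p = 0.0427). Oxalate and glyoxylate genes had 1 of 13 higher and 3 lower, with Grhpr, the glyoxylate reductase, at 8.63 with EG and 9.98 in the control, and Slc26a1, an oxalate-sulphate exchanger, at 5.92 and 4.92 in that order.

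The further lists are mostly short, and their counts stand beside 8.58% higher and 9.69% lower over all tested probe sets. A count of 1 or 2 members in such a list is not read as a result. Osmolyte genes, which mark the salt gradient of the medulla, had 0 of 9 higher and 2 lower, with Slc5a3, the inositol transporter, at 14.73 with EG and 16.26 in the control and Akr1b1, aldose reductase, at 14.61 and 14.32 in that order. Of the sodium pump and exchanger list 0 of 4 were higher and 2 lower, of the glomerulus list 0 of 7 and 3, and of the list of gluconeogenesis and ammonia 1 of 13 and 4. Upk1b, a uroplakin of the urothelium, had 7.76 with EG and 5.12 in the control, at least 2.16 higher. It reached the filter on that EG array alone, and differed by 0.50 in the phlorizin pair. Of 8 urothelium and inner medulla genes in the table only 2 were tested. Thin limb genes had 1 of 9 higher and 3 lower, among them Aqp1 at 15.73 with EG and 16.97 in the control. Junction genes had 6 of 20 higher and 2 lower, led by Cldn6, a claudin of embryonic epithelium, at 10.70 with EG and 6.78 in the control (rose, limma adjusted p = 0.031). Next were Gja1, encoding the gap junction protein connexin 43, at 14.00 with EG and 10.39 in the control, and Cdh6, a cadherin of the developing nephron, at 12.98 with EG and 9.47 in the control. Growth factor genes had 8 of 33 higher and 6 lower, with Tgfb2 at 9.60 with EG and 7.71 in the control and Pdgfa at 10.58 and 12.92. Drug transporters had 4 of 17 higher and 5 lower, and clock genes 0 of 13 higher and 2 lower. The plot of the lists shows the spread of single members around each median.

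**Figure D3:**
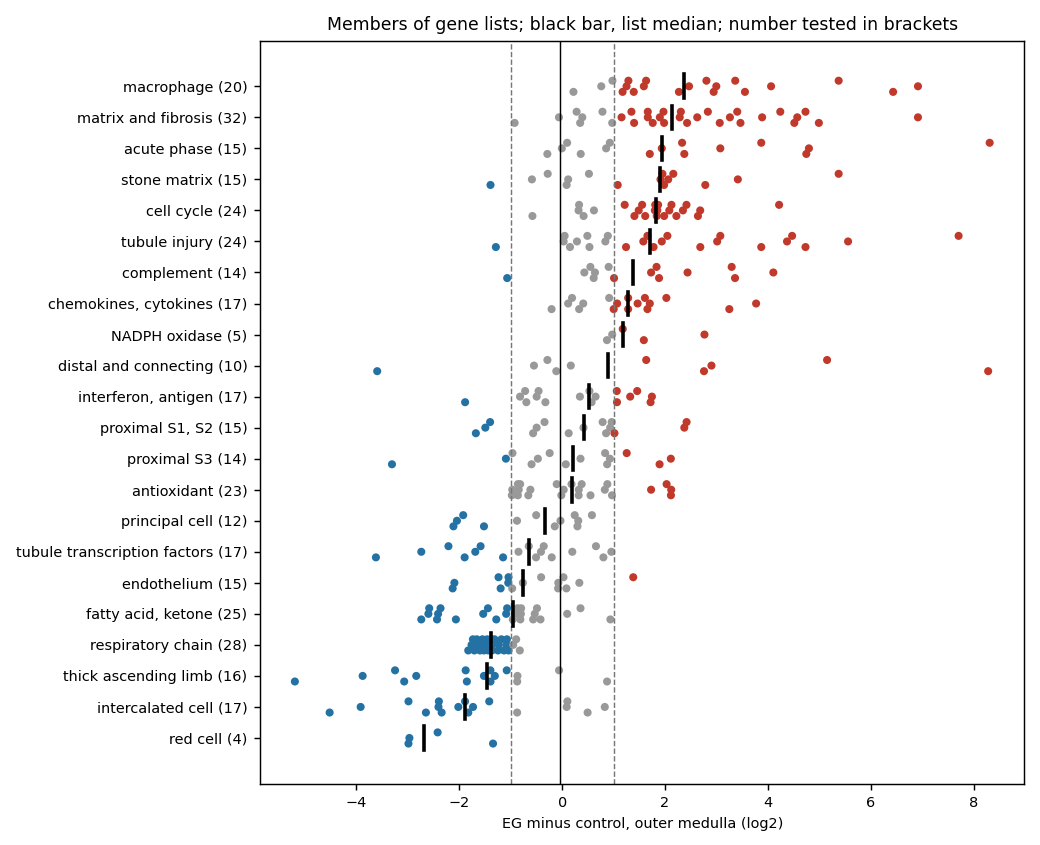
EG minus control in the outer medulla (log2) for the tested members of 22 gene lists, 1 point a gene, ordered by the list median (black bar), with red points at least 1 higher, blue points at least 1 lower and the median of all tested probe sets as a thin line. Macrophage genes lie highest at a median of 2.37 and red cell genes lowest at -2.70, and respiratory chain genes form the tightest group, between -1.83 and -0.82.

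The second outer medulla pair, EG with phlorizin minus phlorizin, was read at the same genes. Of the 1130 probe sets at least 1 higher with EG, 1042 (92.2%) were higher in that pair, 413 by at least 1, and 5 were at least 1 lower. Over all tested probe sets 48.1% were higher and 51.9% lower in that pair. The 413 are 36.5% of those here and 85.9% of the 481 there. Of the 1275 lower, 1196 (93.8%) were lower there, 259 by at least 1, and 2 were at least 1 higher. The 259 are 20.3% of those here and 65.4% of the 396 there. Differences with phlorizin were mostly smaller, with medians of 0.76 there against 1.56 here for the higher set and -0.65 against -1.42 for the lower set. Those sets were picked for their size in the first pair. Exceptions with differences of like size were Clu (4.16 there and 4.47 here), Guca2a, encoding guanylin (3.10 and 2.98), Alox15b, a lipoxygenase (3.91 and 3.72), and Slc7a12 (-3.43 and -3.31). Each of the 4 was called in the joint fit. Its residual is small where both pairs differ alike, so these calls are not independent of the choice.

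Between the zones, EG minus control in the cortex had 1272 probe sets at least 1 higher (9.66%) and 1671 lower (12.7%). Of the 1130 higher in the outer medulla, 645 were at least 1 higher in the cortex too, 57.1% of those here and 50.7% of those there, and of the 1275 lower 589 were at least 1 lower, 46.2% and 35.2%. The outer medulla difference exceeded that of the cortex by at least 2 at 366 probe sets and fell short of it by at least 2 at 166. In the first group stood Gabrp (7.80 here and 1.77 in the cortex), Trpv5 (at least 8.16, and 2.41), Guca2b, encoding uroguanylin (4.48 and -1.25), and Car15, a carbonic anhydrase (at least 3.16, and -0.94). Syt10, a synaptotagmin, had 10.31 with EG and 6.22 in the control and was below background in the cortex. Slc7a13, Slco1a6 and Hnmt belong to that group through lower values in the cortex: they differed by -0.97, -0.60 and -0.08 here and, in the cortex, by -6.94, -5.77 and -4.97. In the second group were Spp1, Igf1 (-2.05 here and 2.71 in the cortex), Corin, a protease that activates natriuretic peptide (-2.74, and at least 0.31 in the cortex), and Reg3g, a lectin at least 5.42 higher in the cortex and at background here. No difference between the zones was tested. The EG cortex array had the lowest poly-A spike-ins, 6.42 against 8.02 on the control cortex array, and their part in the cortex differences was not tested. The plot of pairs sets the outer medulla difference against both others.

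**Figure D4:**
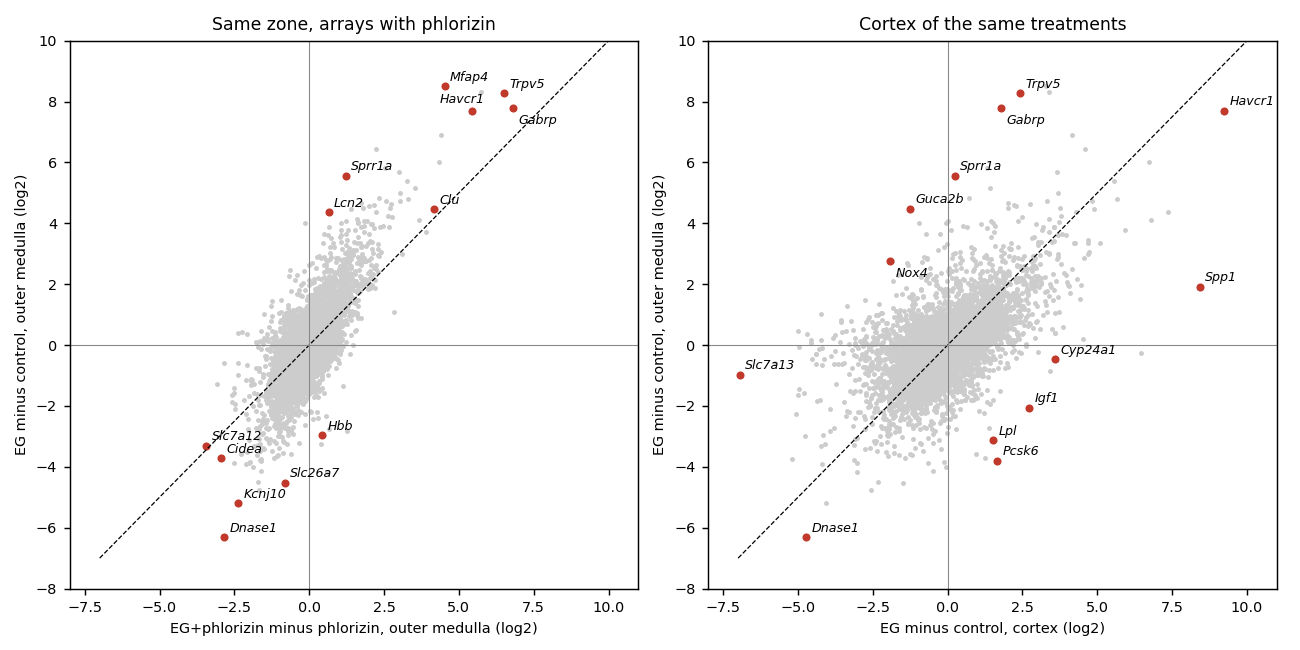
EG minus control in the outer medulla (vertical axis, log2) against EG with phlorizin minus phlorizin in the outer medulla (left) and EG minus control in the cortex (right), 1 point for each named gene tested, with selected genes in red and the line of equal differences dashed. Clu and Slc7a12 lie near the line on the left, and Spp1 lies at 1.91 on the vertical axis and at 8.42 on the cortex axis on the right.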

How the data were processed

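RNA of the rat outer medulla and cortex was hybridised to Clariom S arrays. The deposited table holds log2 values, made with RMA by the authors according to the submitters' processing notes. Neither the RMA version nor the build of the probe design is given in the sources used here. That the logarithm has base 2 was judged from the range of values. The values were used as deposited, and no raw intensities were used. Of 24834 probe sets, 1646 that do not stand for transcripts, mostly controls, were dropped. Gene names, available for 15049 of the 23188 others, came from GEO's platform annotation. For 10 symbols with several probe sets the one with the highest mean stood for the gene. Tested were 13163 probe sets whose highest of 8 values reached the median of all values (7.54). A gene that is dim without EG can thus be tested through an EG array alone. The number of arrays limits the precision.

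The main result is the EG minus control difference per probe set, counted at 1 on the log2 scale. A second result is a fit of EG and phlorizin over the 4 outer medulla arrays, with limma 3.58.1 in R 4.3.3, 1 residual degree of freedom, 2-sided p-values and Benjamini-Hochberg adjustment at 0.05. The fit was checked on simulated data with known changes. Genes were named by a rule: the 25 highest and 25 lowest characterised genes, up to 6 members of each of 41 lists (739 of 815 entries are in the table) with family members beside them, and 15 genes each way where the zones differ most. Siglec1, Alox15b, Guca2a, Fkbp5, Slc13a1, Syt10, Krt15, Eln, and genes given as examples of small differences, were chosen with their values seen. The members and lists were chosen with earlier results of these data known. Promoter windows came from RefSeq, build GRCr8, without the bases after the start. The 4 motifs named in the text, and the STAT motif TTCNNNGAA (in 7.52% of all windows and 3 of 12 of the acute phase list), were searched on both strands. Alternatives covered the normalization, the filter, the size, a floor at background and the model. Differences were computed in Python 3.11.15 (pandas 2.3.3, numpy 2.4.6) and figures drawn in matplotlib 3.10.9.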

Additional observations from a re-analysis of the deposited data

Results flagged for a closer look

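For 18 of the genes that the naming rule covers, the EG array was at least 1 above its control in 1 zone and at least 1 below it in the other, with values held at the background mean. Over all tested probe sets, 37 were higher in the outer medulla and lower in the cortex in this way, and 19 the reverse. The difference between the zones was not tested, since each group has 1 array. The sizes below are from the values as deposited. With values held at the background mean, that of Calb1 was 4.46 and that of Pcsk6 -5.07. Of the 18, 15 had the same sign in EG with phlorizin minus phlorizin, among them Pth1r, Adm and Abcg2 with only 0.03, 0.11 and 0.14 there. Of all probe sets at least 1 apart in the outer medulla, 92.2% of the higher and 93.8% of the lower had the same sign there. The count of 15 thus does not set these genes apart.

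In 12 of them the outer medulla was the higher zone of EG minus control. The outer medulla difference minus the cortex difference was 5.73 for Guca2b, which encodes uroguanylin, and 5.25 for Slco1a3, an organic anion transporter whose difference was 1.02 here and -4.24 in the cortex. It was 4.68 for Nox4, 4.61 for Calb1, 4.24 for the lactate transporter gene Slc5a8 and 3.95 for Slc5a10. It was 3.27 for Cd55, 3.25 for Pth1r, the receptor of parathyroid hormone, 2.87 for Adm, encoding the vasodilator adrenomedullin, and 2.78 for Slc8a1. The efflux transporter genes Abcg2 and Slc47a1 had 2.43 and 2.39. All 12 had lower levels in the control outer medulla than in the control cortex, for example Calb1 at 5.45 and 15.36 and Nox4 at 6.42 and 15.58 in that order. Both control values also enter the differences that picked these genes, so this order is not independent of the choice.

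In the other 6 the outer medulla was lower with EG and the cortex higher. The outer medulla difference minus the cortex difference was -3.36 for Aqp4, -3.42 for Cyth4 and -4.63 for Lpl. It was -4.77 for Igf1, -4.95 for Cidea and -5.45 for Pcsk6, a proprotein convertase. These 6 had higher levels in the control outer medulla than in the control cortex, for example Cidea at 14.21 and 8.15 and Pcsk6 at 12.47 and 5.30. Here too the control values had a part in the choice.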

How the results depend on the processing

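The counts of probe sets at least 1 apart between the EG and the control outer medulla ran from 922 to 1391 higher and from 1170 to 1418 lower over 7 settings of normalization, filter and floor, against 1130 and 1275 as reported. With a size of 2 they were 339 and 242. Of 199 list medians under the alternatives, 0 changed sign among those well away from 0 as reported, and 5 crossed 1 by more than a small shift. Those were glomerulus genes at -1.24 with the filter on the mean of the EG and control arrays, and stone matrix 0.41, chemokine 0.80, complement 0.96 and NADPH oxidase 0.87 without a filter, where silent members enter. Of 987 single-gene differences 0 reversed as called values and 17 crossed 1, among them Slc5a1 (0.24) with the floor at background. The joint fit depended on the setting most. Against 237 that rose and 118 that fell, array centring gave 164 and 72, no filter 436 and 277, a variance trend 426 and 385, and the model without phlorizin 4 and 1. Quantile normalization of the 4 arrays gave 0 and 0, with 1487 and 1564 at an unadjusted p under 0.05. The cause was not tested. No paired analysis was possible because the labels give no replicate numbers that groups share and each group has 1 array. Signal over background limits what can be said of dim genes: 73 of the 1130 had a control value below the background mean, and 22 of the 1275 an EG value below it. Values near 19.6, the highest on the array, as for Clu, may be compressed.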
